A study of Mus musculus with 24 samples.

Results

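The genes described here are 10 smooth-muscle contractile and serum response factor genes, taken by name from the 47480 genes of a count table of mouse embryonic fibroblasts: Acta2, Tagln, Cnn1, Cnn2, Myl9, Tpm1, Tpm2, Cald1, Vcl and Srf. All 10 were among the 14772 genes with enough counts to be tested, and no member was lost to that filter. The study profiled wild type fibroblasts in 24 libraries, as 8 groups of 3 replicates, combining a control small interfering RNA (siCTRL) or one against Cop1 (siCop1), the solvent DMSO or the compound KL001, and no further addition or Dexa. The groups without an addition are called "without Dexa" here, and every group without KL001 had DMSO. KL001 is a small molecule known to stabilise the cryptochromes, repressor proteins of the circadian clock, and Cop1 is the substrate-binding subunit of a ubiquitin ligase. Dexa is spelled here as submitted. Nothing read here states doses, times or whether replicates were separate cultures, so p-values measure the spread between these libraries, which may be technical. Each library is a bulk average of cultured cells, in which fewer cells of a type and less RNA per cell cannot be told apart.

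Serum response factor, the product of Srf, binds a short DNA element called the CArG box. In fibroblasts it is known to work with either of a pair of partner classes. The myocardin-related factors (MRTF-A and MRTF-B) are held in the cytoplasm by actin monomers and enter the nucleus when actin polymerises, which links contractile and cytoskeletal genes to the state of the actin cytoskeleton. The ternary complex factors answer to MAP kinase signalling and drive immediate early genes such as Egr1. High alpha smooth muscle actin in filaments is the textbook sign of a myofibroblast, the contractile fibroblast of wounds and fibrosis.

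The CArG box is the sequence these genes are known to share, so promoter windows of RefSeq (GRCm38.p6, 250 bases before to 50 after the annotated start) were searched for it on both strands, the element reading the same on either. Windows were found for 9 of the 10 genes, 10 windows in all because Cald1 has 2. The starts of the windows are not always the outer ends of the gene spans printed further below. The Srf and Tpm1 windows, and both Acta2 elements, lie inside the spans printed for these genes. The stretches below are given 5′ to 3′ on the gene's strand, with the element in capitals.
Srf, chr17:46556225-46556254, minus strand: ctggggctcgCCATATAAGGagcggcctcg
Srf, chr17:46556205-46556234, minus strand: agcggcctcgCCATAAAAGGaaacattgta
Cnn2, chr10:79988534-79988563, plus strand: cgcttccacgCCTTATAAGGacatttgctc
Myl9, chr2:156775293-156775322, plus strand: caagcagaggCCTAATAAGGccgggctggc
Vcl, chr14:20929161-20929190, plus strand: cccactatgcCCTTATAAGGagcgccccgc
Acta2, chr19:34255438-34255467, minus strand, 1 core base off: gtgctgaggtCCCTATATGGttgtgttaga
Acta2, chr19:34255388-34255417, minus strand, 1 core base off: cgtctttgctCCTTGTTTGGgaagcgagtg
Myl9, chr2:156775355-156775384, plus strand, 1 core base off: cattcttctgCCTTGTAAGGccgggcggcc

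A full CArG box lay in 4 of the 10 windows (40%), against 1.63% of 32817 mouse promoter windows and 1.33% of the 13431 windows of tested genes. The Srf window holds 2 boxes, and the stretches printed for them overlap. A box with 1 core base off lay in 2 of the 10 windows, against 8.5% of all windows. The windows of Cnn1, Tpm1, Tpm2 and Cald1 held neither form, which says only that these letters are not in these 300 bases. Since the genes were listed for their link to serum response factor, the share describes the list. Of the genes with a full box, Cnn2 and Myl9 fell with siCop1 in all 4 settings, Srf in 3 and Vcl in 0. Of those with no box in the window, Cnn1, Tpm1 and Cald1 fell in all 4 and Tpm2 in 1.

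The labels were checked against the RNA. Rfwd2, the older symbol of Cop1, stood at 25.0 to 29.7 CPM (counts scaled to library size) in the 12 siCTRL libraries and at 4.33 to 5.79 CPM in the 12 siCop1 libraries, a log2 change of -2.56 to -2.43. Libraries held 21409988 to 27875023 counts, and the 10 genes took 0.615% to 0.888% of them. A list of 10 fibroblast markers summed to 35183 to 50924 CPM, with 0 of the 10 at 0. Of the late smooth-muscle genes, Myh11, the smooth-muscle myosin heavy chain, averaged 0.245 to 0.65 CPM over the groups. Actg2 and Lmod1 of the same list averaged 60.4 and 46.2 CPM in siCTRL DMSO. Myocd, the muscle-specific cofactor of serum response factor, is on the list of MRTF cofactors. It averaged 0.013 to 0.11 CPM and was not tested.

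Acta2, which encodes alpha smooth muscle actin, was the most abundant of the 10 per length of annotated exon. That length pools the GENCODE exons of all transcripts of a gene, 12041 bases for Cald1, 6485 for Tpm1 and 2196 for Acta2. The order below depends on it and is not an order of transcript abundance. By CPM alone in siCTRL DMSO, Acta2 (2990) was followed by Tpm1 (1553) and Cald1 (960). In siCTRL DMSO without Dexa it stood at 1361 ± 23.7 CPM per kilobase of exon (SD, n = 3). Myl9, the regulatory light chain of myosin II, and Tagln, the actin-binding protein transgelin, followed at 375 ± 4.71 and 371 ± 13.2 CPM per kilobase, and their library ranges overlapped. Cnn2, the calponin of non-muscle cells, stood at 301 ± 5.45, and the tropomyosins Tpm1 and Tpm2, coiled coils along the actin filament, at 239 ± 6.69 and 153 ± 6.77 CPM per kilobase. The focal adhesion protein Vcl (vinculin) at 91.1 ± 6.65, the actin- and myosin-binding inhibitor Cald1 (caldesmon) at 79.7 ± 1.97 and Cnn1 (calponin 1, of smooth muscle) at 71.7 ± 1.76 came next. The transcription factor gene Srf was the lowest, at 31.8 ± 1.64 CPM per kilobase. Each other neighbouring pair in this order had ranges that did not overlap.

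By RefSeq positions on the same build, with strands from GENCODE, Acta2 lies on the minus strand at chr19:34240336-34255585, Tagln on the minus strand at chr9:45929628-45936058, Cnn1 on the plus strand at chr9:22099221-22109221 and Srf on the minus strand at chr17:46546838-46558267. Cnn2 lies at chr10:79988600-79995400, Myl9 at chr2:156775408-156781657, Cald1 at chr6:34598495-34775469 and Vcl at chr14:20929383-21033676, all on the plus strand, and Tpm1 at chr9:67022590-67049672 and Tpm2 at chr4:43513726-43523583 on the minus strand. Reads of close copies are a limit for this family: Acta2 resembles the other muscle actins, Tpm1 and Tpm2 resemble Tpm3 and Tpm4, and Myl9 resembles Myl12a and Myl12b. How the counting treated such reads is not given in the sources used here. Actg1, the cytoplasmic gamma actin, averaged 5.58 to 7.43 CPM while Actb, the beta actin, averaged 1629 to 1916 CPM. In GENCODE, Tagln shares 62.4% of its exon bases with the antisense gene Gm48529 and 5.43% with Pcsk7, and Vcl shares 25.5% with Ap3m1, all on the opposite strand. The libraries were stranded per the labels, and the strand setting of the counting is not given.

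**Figure D1:**
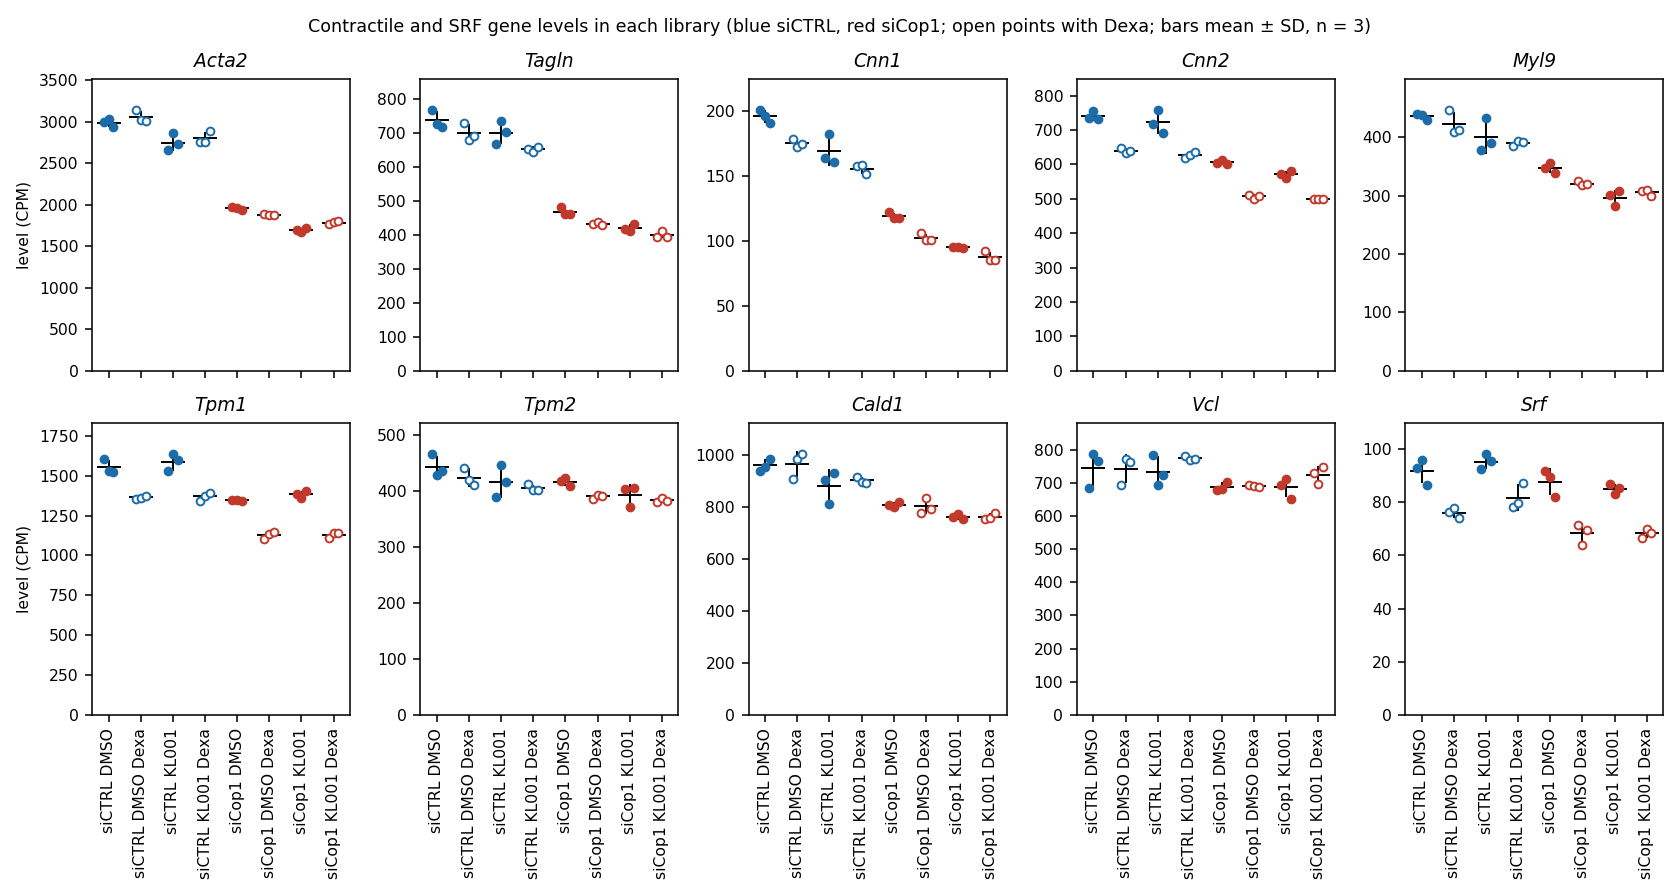
Level of each of the 10 genes (CPM, linear axes from 0) in each library of the 8 groups, with bars for the mean ± SD of 3 libraries. The siCTRL points (blue) lie above the siCop1 points (red) without overlap for Acta2, Tagln, Cnn1, Cnn2 and Myl9, while the ranges of Tpm1, Cald1, Vcl, Tpm2 and Srf overlap.

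Cop1 knockdown was compared with siCTRL in each of the 4 settings of compound and Dexa. Acta2, Tagln, Cnn1, Cnn2, Myl9, Tpm1 and Cald1 were lower with siCop1 in all 4 settings. Acta2, Tagln and Cnn1, the genes most tied to the smooth-muscle and myofibroblast state, changed most, by -43.7% to -34.6%. Cnn2, Myl9, Tpm1 and Cald1 fell less, Srf fell in 3 of 4 settings, and Vcl passed in none.

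Acta2 is the filament actin of smooth muscle and myofibroblasts. In DMSO without Dexa it stood at 3001, 3035 and 2933 CPM in the siCTRL libraries and at 1967, 1965 and 1938 CPM in the siCop1 libraries. With Dexa the values were 3140.1, 3025 and 3006 CPM against 1886, 1880.3 and 1879.8 CPM. The same gap appeared under KL001, where it stood at 2656, 2861 and 2728 CPM against 1692, 1676 and 1721 CPM without Dexa. In KL001 with Dexa it stood at 2759, 2761 and 2889 CPM against 1765, 1787 and 1799.6 CPM. The lowest of the 12 siCTRL libraries (2656 CPM) lay above the highest of the 12 siCop1 libraries (1967 CPM). The log2 changes were -0.61 and -0.70 in DMSO without and with Dexa and -0.70 and -0.65 in KL001, each with a standard error of 0.026. The adjusted p-values of edgeR's quasi-likelihood test ran from 1.9e-18 to 4.9e-17.

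Tagln is an early marker of smooth-muscle differentiation that binds actin filaments. It stood at 768, 727 and 719 CPM in siCTRL DMSO and 481, 463 and 463 CPM in siCop1 DMSO, and with Dexa at 731, 679.8 and 691 against 432, 438 and 430.5 CPM. In KL001 it stood at 667, 735 and 703 against 418, 410.3 and 433 CPM, and with Dexa at 655, 644 and 661 against 394, 411 and 395 CPM. No siCop1 library reached the siCTRL range. The log2 changes were -0.65, -0.69, -0.74 and -0.71 in that order, with standard errors of 0.034 and adjusted p-values of 2.6e-16 to 3.5e-15 (edgeR).

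Cnn1, which restrains the actomyosin ATPase in smooth muscle, changed most by fold in all 4 settings. It stood at 201, 196 and 191 CPM in siCTRL DMSO against 122, 118 and 118 CPM in siCop1 DMSO, and with Dexa at 179, 173 and 175 against 106, 101 and 101 CPM. In KL001 the values were 164, 182 and 161 CPM against 95.5, 95.5 and 94.9 CPM, and with Dexa 158, 158 and 151 against 92.6, 85.3 and 85.5 CPM. Its lowest siCTRL library stood at 151 CPM and its highest siCop1 library at 122 CPM. Its log2 changes were -0.72 (95% interval -0.80 to -0.64), -0.77, -0.83 and -0.83, with adjusted p-values of 8.6e-16 to 9.5e-15 (edgeR). No test compared the genes with each other.

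A second tier moved by -25.9% to -12.8%. Myl9, whose phosphorylation switches on non-muscle and smooth-muscle myosin, stood at 440.3, 438 and 429.8 CPM in siCTRL DMSO and 347, 355 and 339 CPM in siCop1 DMSO. Its log2 change ran from -0.43 to -0.33 over the 4 settings. Cnn2 stood at 734, 756 and 731 against 605, 612 and 602 CPM in the same pair of groups and changed by -0.34 to -0.29. For both genes all 12 siCTRL libraries lay above all 12 siCop1 libraries, for Cnn2 by a narrow margin of 618 against 612 CPM. Tpm1 changed by -0.28 to -0.20 on the log2 scale, from 1603, 1531 and 1526 CPM to 1351, 1350.0 and 1344 CPM in DMSO without Dexa. Cald1 changed by -0.27 to -0.21, from 939, 955 and 985 CPM to 808, 801 and 819 CPM. Each of these 4 genes passed the test in all 4 settings, with adjusted p-values (edgeR) of at most 1.0e-04.

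The third tier held Tpm2, Vcl and Srf. Tpm2 passed in DMSO with Dexa (-0.12, adjusted p = 0.021 by edgeR), and in the other settings its log2 change was -0.089 to -0.079 with adjusted p-values of 0.092 to 0.14. Leaving out siCTRL replicate 1 or siCop1 replicate 1 of DMSO with Dexa brought the Tpm2 adjusted p to 0.099 and 0.065, and without siCTRL replicate 1 of KL001 Tpm2 passed in that setting too (-0.13, adjusted p = 0.0089). Without siCTRL replicate 2 or siCop1 replicate 2 of KL001 the latter change was -0.034 and -0.046 (adjusted p = 0.57 and 0.47), and without siCTRL replicate 1 of DMSO that in DMSO without Dexa was -0.052 (0.40). Vcl, which couples actin to integrins at focal adhesions, had log2 changes of -0.12 to -0.096 with adjusted p-values of 0.074 to 0.14. In DMSO without Dexa, Vcl stood at 684, 788 and 767 CPM in siCTRL and 678, 683 and 704 CPM in siCop1, so the first siCTRL library lay inside the siCop1 range. Without that library the Vcl change was -0.18 (adjusted p = 0.0041), and without siCTRL replicate 2 it was -0.070 (0.35). Without siCTRL replicate 1 of DMSO with Dexa the Vcl change was -0.16 in that setting (adjusted p = 0.010). In KL001 it was -0.047 without siCTRL replicate 1 and -0.061 without siCop1 replicate 3 (0.51 and 0.42). With no filter on low counts Vcl passed in all settings but KL001 without Dexa (adjusted p 0.0094 to 0.015), and in the fit on the libraries compared in both settings with Dexa (0.046 in DMSO and 0.0047 in KL001). Srf stood at 93.1, 95.9 and 86.7 CPM against 91.9, 89.6 and 82.0 CPM in DMSO without Dexa, overlapping ranges with a log2 change of -0.065 (adjusted p = 0.33). Without siCTRL replicate 2 or siCop1 replicate 3 of DMSO that value was -0.028 and -0.018 (adjusted p = 0.76 and 0.84), and without siCop1 replicate 1 -0.099 (0.18). Its other changes were -0.16, -0.16 and -0.26 (adjusted p = 0.015, 0.0084 and 1.2e-04), and the first of these became -0.11 (adjusted p = 0.127) without siCop1 replicate 2 of DMSO with Dexa.

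In counts, siCop1 lowered 7 of the 10 genes in DMSO without Dexa, where 16.6% of all tested genes were called lower. It lowered 9 of 10 with Dexa (16.7% of all), 8 of 10 in KL001 (18.2%) and 8 of 10 in KL001 with Dexa (16.3%), and raised 0 of 10 in each, where 12.8%, 14.4%, 14.5% and 13.7% of all genes were called higher. For 5 of the 10 (Acta2, Tagln, Cnn1, Cnn2 and Myl9) all 12 siCop1 libraries lay below all 12 siCTRL libraries, as they did for 4.25% of all tested genes. The median log2 change of the 10 was -0.27, -0.30, -0.27 and -0.30, while that of all tested genes ran from -0.0097 to 0.0014. In each setting the share of the 10 called lower stands above the share of all genes. The 10 were chosen with earlier results of these data known, so this difference describes the list and is not a test. They averaged 81.9 (Srf) to 2365 CPM (Acta2) over all libraries, and the share of all genes was not matched for level.

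**Figure D2:**
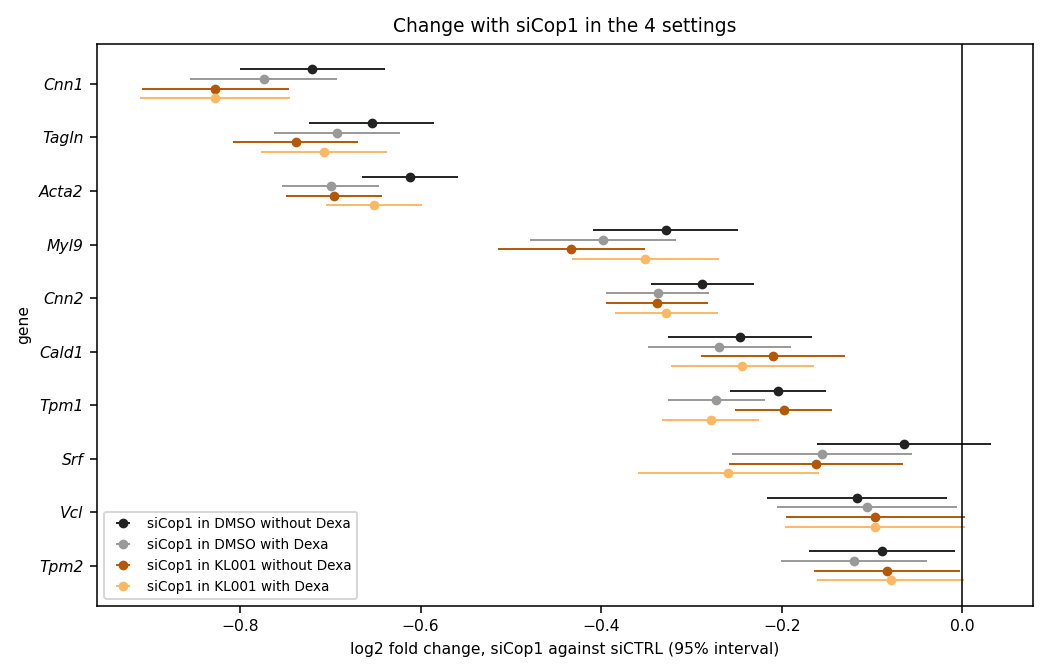
The log2 fold change of each gene with siCop1 against siCTRL (points, with 95% intervals) in the 4 settings of compound and Dexa. Cnn1, Tagln and Acta2 lie between -0.83 and -0.61, and Cnn2, Myl9, Tpm1 and Cald1 between -0.43 and -0.20. Srf runs from -0.26 to -0.065, and the intervals of Vcl and Tpm2 approach or cross 0.

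RNA of heart-muscle genes varied between libraries and moved partly with the siRNA. A list of 13 heart markers (Myh6, Tnnt2 and others) summed to 39.3 to 153 CPM in 6 siCTRL libraries, all 3 of DMSO without Dexa and replicate 2 of each other siCTRL group, with at most 1 marker at 0. In the other 6 siCTRL libraries the sum was 7.37 to 9.54 CPM with 4 to 8 markers at 0, and in the 12 siCop1 libraries 5.85 to 8.50 CPM with 3 to 7 at 0. In the 6 siCTRL libraries with the low sums Acta2 stood at 2656 to 3140 CPM, Tagln at 655 to 731 CPM and Cnn1 at 151 to 179 CPM. The siCop1 ranges were 1676 to 1967, 394 to 481 and 85.3 to 122 CPM, so none of the 3 overlapped. Leaving out replicate 2 of the siCTRL group gave siCop1 changes in Acta2 of -0.71 in DMSO with Dexa and of -0.67 in both KL001 settings, where no other library had a high sum. In DMSO without Dexa every siCTRL library had one, so that setting gives no such value. The sum of the fibroblast markers moved with siCop1 too. It was 42430 to 43837 CPM against 48221 to 50924 CPM in siCTRL in DMSO without Dexa, and 40110 to 41743 against 46816 to 47290 CPM with Dexa. In KL001 it was 36261 to 37489 against 41051 to 45054 CPM, and with Dexa 35183 to 37079 against 40104 to 41909 CPM, so that siCop1 was lower without overlap in each setting. Of the 10 fibroblast markers siCop1 lowered 2, 2, 5 and 2 and raised 0, 0, 2 and 2, and 8, 8, 3 and 6 were not called. Of all tested genes 16.6%, 16.7%, 18.2% and 16.3% were lower in these settings, so 2 of 10 is near that share. Called higher were 12.8%, 14.4%, 14.5% and 13.7% of all genes. Other marker lists summed low: skeletal muscle to 4.11 to 12.5 CPM in siCTRL and 2.38 to 6.45 CPM in siCop1, and endothelium to 1.16 to 3.03 and 0.729 to 2.16 CPM. Squamous epithelium markers summed to 8.89 to 24.5 CPM in siCTRL and 11.5 to 85.4 CPM in siCop1. Macrophage markers summed to 2.59 to 7.48 and 4.43 to 15.2 CPM, and airway markers to 0.988 to 6.76 and 2.94 to 11.5 CPM. The part of these lists in the results was not tested.

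**Figure D3:**
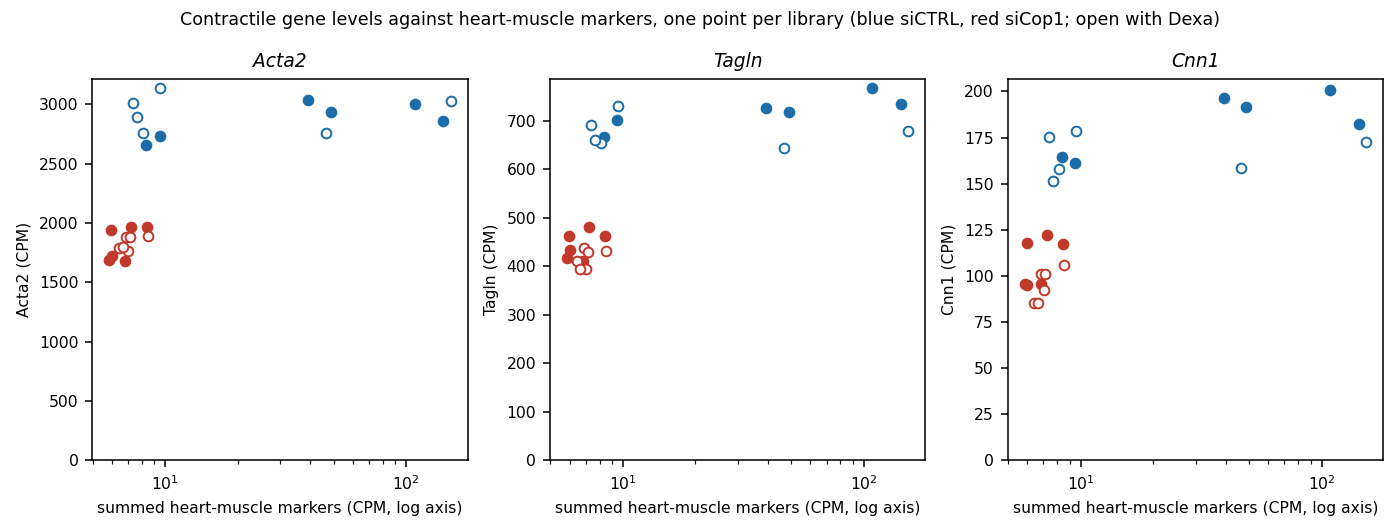
Level of Acta2, Tagln and Cnn1 (CPM) against the summed heart-muscle markers (CPM, log axis), with 1 point per library (open points with Dexa). The siCTRL points (blue) at high sums have Acta2 at 2761 to 3035 CPM and those at low sums at 2656 to 3140 CPM, all above the siCop1 points (red).

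Dexa was compared with no addition within each siRNA and compound. Srf, Cnn2, Tpm1 and Cnn1 fell in all 4 settings, while Cald1, Vcl and Tpm2 passed in none and Acta2 passed in 1. The changes of the 4 genes lowered throughout ran from -22.3% to -7.84%.

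Srf showed the largest fall with Dexa. In siCTRL DMSO it stood at 93.1, 95.9 and 86.7 CPM without and 76.4, 77.8 and 74.1 CPM with Dexa, and in siCTRL KL001 at 92.4, 98.2 and 95.4 against 78.2, 79.8 and 87.5 CPM. After Cop1 knockdown it stood at 91.9, 89.6 and 82.0 against 71.6, 63.9 and 69.5 CPM in DMSO and at 86.9, 83.3 and 85.4 against 66.6, 70.0 and 68.5 CPM in KL001. Every Dexa library lay below its 3 controls, and among siCop1 libraries the ranges were 63.9 to 71.6 CPM with and 82.0 to 91.9 CPM without Dexa. The log2 changes were -0.27, -0.22, -0.36 and -0.32, with standard errors of 0.047 to 0.048 and adjusted p-values of 6.0e-07 to 5.5e-04 (edgeR).

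Tpm1 stood at 1603, 1531 and 1526 CPM in siCTRL DMSO and 1357, 1363 and 1374 CPM with Dexa, a log2 change of -0.19. The change was -0.21 in siCTRL KL001, -0.25 in siCop1 DMSO and -0.29 in siCop1 KL001. Cnn2 went from 734, 756 and 731 CPM to 648, 632 and 639.6 CPM in siCTRL DMSO, and its 4 log2 changes were -0.21, -0.20, -0.26 and -0.19. For Tpm1 and Cnn2 the 6 Dexa libraries of each siRNA lay below the 6 without it. Their adjusted p-values were at most 2.3e-06 (edgeR). Cnn1 fell by less, with log2 changes of -0.16, -0.12, -0.22 and -0.12 and adjusted p-values of 0.0016, 0.023, 1.2e-04 and 0.034. In KL001 the Cnn1 call rests on single libraries: without siCTRL replicate 2 of KL001 it was -0.062 (adjusted p = 0.25), without replicate 2 or 3 of siCTRL KL001 with Dexa -0.12 and -0.086 (0.057 and 0.18), and in siCop1 it lost the call without 5 of the 6 libraries (adjusted p up to 0.16).

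Acta2 had small changes with Dexa. Its log2 changes were 0.032 (95% interval -0.021 to 0.085) and 0.028 (-0.025 to 0.081) with siCTRL and -0.056 (-0.11 to -0.0027) in siCop1 DMSO, and none passed the test. In siCop1 KL001 it was 0.073 (adjusted p = 0.039 by edgeR), and that call was lost when any 1 of 5 of the 6 libraries was left out (adjusted p 0.054 to 0.14). That interval was 0.020 to 0.13. Tagln passed in siCTRL KL001 (-0.10, adjusted p = 0.020) and siCop1 DMSO (-0.11, 0.013), with -0.075 and -0.073 elsewhere. The first lost its call without siCTRL replicate 2 of KL001 (-0.069, adjusted p = 0.15) or without replicate 2 or 3 of KL001 with Dexa (-0.083 and -0.10, adjusted p = 0.14 and 0.062), and the other without siCop1 replicate 1 of DMSO (-0.095, 0.083). Myl9 passed in siCop1 DMSO (-0.12, adjusted p = 0.033), and not without replicate 1 or 2 of siCop1 DMSO or replicate 2 or 3 of siCop1 DMSO with Dexa (adjusted p 0.079 to 0.13). Cald1 had log2 changes of -0.013 to 0.034, Vcl of -0.0048 to 0.078 and Tpm2 of -0.095 to -0.036.

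Dexa lowered 4 of the 10 genes in siCTRL DMSO, where 14.1% of all tested genes were called lower. It lowered 5 of 10 in siCTRL KL001 (14% of all), 6 of 10 in siCop1 DMSO (11.6%) and 4 of 10 in siCop1 KL001 (12.4%). Acta2 in siCop1 KL001 was the 1 member called higher, where 12.1% of all genes were, and in the other settings 0 of 10 were, against 12.7%, 12.7% and 12% of all. The median log2 change of the 10 was -0.070, -0.072, -0.11 and -0.054. Without siCTRL replicate 2 of KL001, without siCTRL replicate 2 or 3 of KL001 with Dexa, or in a fit on the libraries compared alone, the count in siCTRL KL001 was 3. In siCop1 KL001 the 5 calls in either direction became 3 without siCop1 replicate 1 or 2 of KL001 or siCop1 replicate 2 or 3 of KL001 with Dexa.

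KL001 was compared with DMSO within each siRNA and Dexa setting. Cnn1 was lower in all 4 settings, Acta2 in 3, Tagln in 2 and Myl9 in 1. Cnn2, Tpm1, Tpm2, Cald1, Vcl and Srf passed in none.

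Without Dexa, Cnn1 went from 201, 196 and 191 CPM in siCTRL DMSO to 164, 182 and 161 CPM in siCTRL KL001, and from 122, 118 and 118 CPM to 95.5, 95.5 and 94.9 CPM with siCop1. In each pair the KL001 libraries lay below the DMSO libraries. The log2 changes were -0.21 and -0.17 with siCTRL, without and with Dexa, and -0.32 and -0.23 with siCop1 (adjusted p = 4.7e-04, 0.0039, 2.9e-06 and 5.7e-04 by edgeR). Acta2 changed by -0.12 and -0.13 with siCTRL and by -0.21 with siCop1 without Dexa (adjusted p = 0.003, 0.0016 and 3.2e-06). With siCop1 and Dexa its value was -0.077 (adjusted p = 0.086), although the 3 KL001 libraries lay below the 3 DMSO libraries. Tagln changed by -0.16 and -0.12 with siCop1 (adjusted p = 0.004 and 0.041), and its values with siCTRL were -0.073 and -0.10 (0.22 and 0.0504), and neither passed. The Tagln call with siCop1 and Dexa was lost without any 1 of 5 of the 6 libraries (adjusted p 0.092 to 0.17). Myl9 changed by -0.23 with siCop1 without Dexa (adjusted p = 3.4e-04).

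Markers moved with KL001 as well. The fibroblast markers summed to 48221 to 50924 CPM in siCTRL DMSO and 41051 to 45054 CPM in siCTRL KL001, and KL001 lowered 4, 5, 3 and 4 of the 10 and raised 0 in the 4 settings. Of all genes 3.51%, 5.58%, 2.32% and 2.97% were called lower there, and 3.22%, 4.98%, 1.77% and 2.5% higher. The heart markers summed to 39.3 to 109 CPM in the 3 siCTRL DMSO libraries, to 143 CPM in replicate 2 of siCTRL KL001 and to 8.35 and 9.48 CPM in its replicates 1 and 3. That replicate 2 was the highest of its group for Cnn1 (182 CPM), Tagln (735 CPM), Myl9 (433 CPM) and Acta2 (2861 CPM). It was also the highest for Cnn2, Tpm1, Tpm2 and Srf, and the lowest for Cald1 (810 CPM) and Vcl (695 CPM). Without it the KL001 changes with siCTRL were -0.27 for Cnn1, -0.15 for Acta2, -0.18 for Myl9 and -0.11 for Tagln (adjusted p = 4.8e-06, 2.3e-04, 0.0011 and 0.058). Those of Cald1 and Vcl went from -0.12 to -0.065 and from -0.022 to 0.017 (edgeR adjusted p = 0.32 and 0.92 without this library). The part of these markers in the result was not tested.

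KL001 lowered 2 of the 10 genes with siCTRL without Dexa (3.51% of all tested genes lower), 2 with Dexa (5.58%), 4 with siCop1 without Dexa (2.32%) and 2 with siCop1 and Dexa (2.97%). It raised 0 of the 10 in each setting, where 3.22%, 4.98%, 1.77% and 2.5% of all genes were called higher. For the first of these comparisons a fit on the libraries compared alone gave 0 of the 10, with Acta2 at -0.12 (adjusted p = 0.21) and Cnn1 at -0.21 (0.083). Leaving out siCTRL replicate 2 of KL001 there gave 4, adding Myl9 (-0.18) and Tpm2 (-0.14), and leaving out siCTRL replicate 2 of DMSO with Dexa gave 4 in the setting with Dexa, adding Tagln (-0.12) and Myl9 (-0.14).

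**Figure D4:**
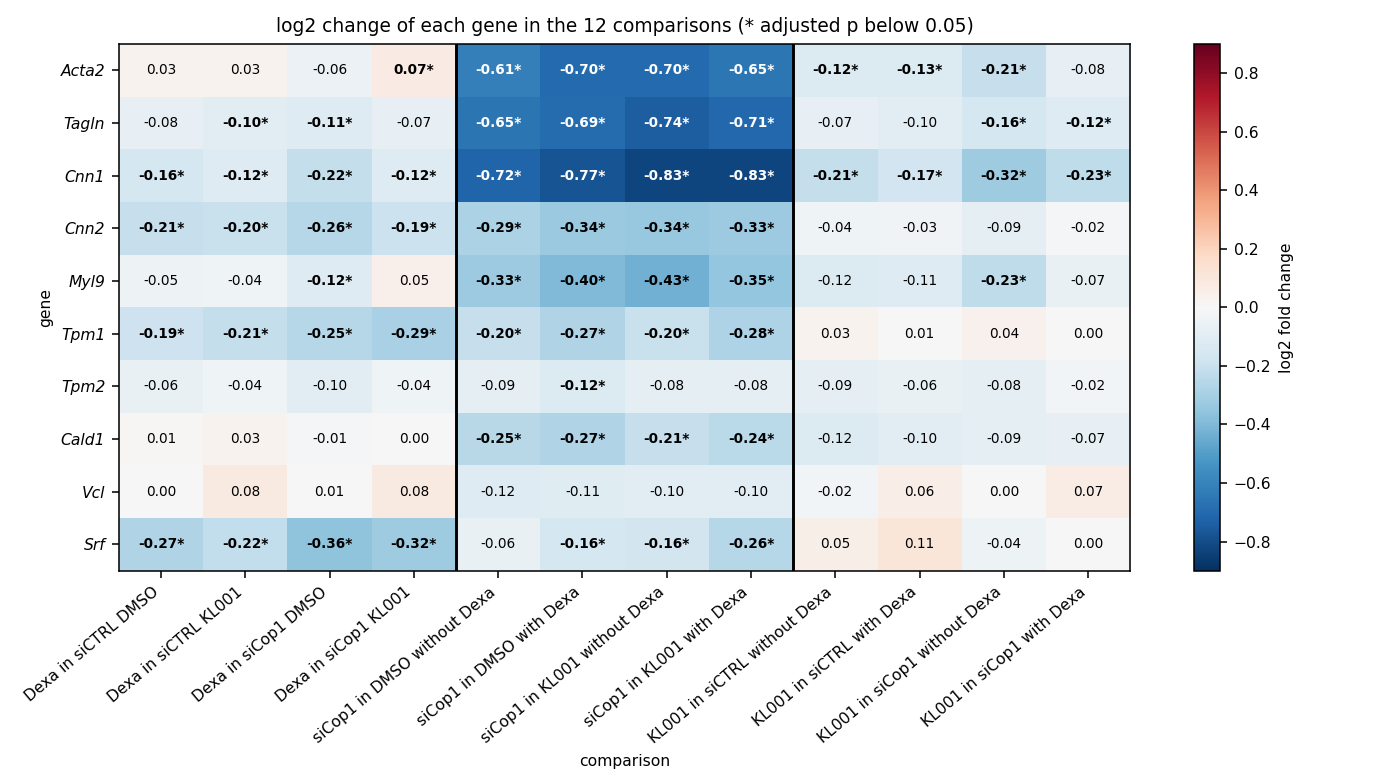
The log2 fold change of each of the 10 genes (rows) in the 12 comparisons (columns: 4 with Dexa, 4 with siCop1, 4 with KL001), coloured from blue (lower) to red (higher) with an asterisk at an adjusted p below 0.05. The siCop1 block is deepest for Acta2, Tagln and Cnn1, the Dexa block for Srf, Tpm1 and Cnn2, and the KL001 block for Cnn1.

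The Dexa, siCop1 and KL001 comparisons share control libraries, so their values are given side by side and not as independent results. Cnn1 was called lower with each of the 3 factors in each of their settings. Its calls for Dexa in both KL001 settings, and for KL001 in siCTRL without Dexa, were lost in some alternatives. Cnn1 was highest in siCTRL DMSO at 196 ± 4.8 CPM (SD, n = 3). It was lowest in siCop1 with KL001 and Dexa at 87.8 ± 4.15 CPM, which is 44.7% of the former. Tagln had the same extremes, 738 ± 26.3 and 400.0 ± 9.37 CPM (54.2%). Acta2 ran from 3057 ± 72.6 CPM in siCTRL DMSO with Dexa to 1696 ± 22.7 CPM in siCop1 KL001 without Dexa (55.5%). Its neighbours siCTRL DMSO with and without Dexa, and siCTRL KL001 with and without Dexa, did not pass the test, and neither did siCop1 DMSO with and without Dexa. Srf ran from 95.3 ± 2.86 CPM in siCTRL KL001 to 68.3 ± 4.0 CPM in siCop1 DMSO with Dexa (71.6%).

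Whether 1 factor changed the effect of another was tested with 6 interaction terms per gene. None of the 60 terms of the 10 genes passed at an adjusted p below 0.05 in edgeR, with 5 at an unadjusted p below 0.05, and DESeq2 also called 0. The terms ran from -0.11 to 0.16 on the log2 scale and their 95% intervals from -0.25 to 0.28, and a fit on the libraries compared alone called 1, Acta2 for KL001 by Dexa with siCop1 (0.13, adjusted p = 0.035). The largest was that of Myl9 for KL001 by Dexa with siCop1 (0.16, interval 0.046 to 0.28). Over all tested genes the siCop1 by Dexa terms called 0.67% in DMSO and 0.562% in KL001, siCop1 by KL001 called 0% and 0.0677%, and KL001 by Dexa called 0% with siCTRL and 0.0677% with siCop1. The siCop1 change of Srf without Dexa and that with Dexa were not shown to differ (-0.091 in DMSO, interval -0.23 to 0.048, and -0.098 in KL001, interval -0.24 to 0.041).

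Other genes of the pathway were taken from fixed lists. Of 26 other cytoskeletal genes known as MRTF-SRF targets, siCop1 lowered 15 and raised 2 in DMSO without Dexa, lowered 13 and raised 3 with Dexa, and in KL001 lowered 13 and 14 and raised 2 and 2. Of all tested genes, 16.6%, 16.7%, 18.2% and 16.3% were lower in these settings and 12.8%, 14.4%, 14.5% and 13.7% higher. The median log2 change of the list was -0.16, -0.13, -0.14 and -0.15. Actg2, the gamma smooth muscle actin, went from 60.4 ± 1.91 CPM to 29.3 ± 0.549 CPM (SD, n = 3) in DMSO without Dexa, with log2 changes of -1.04, -1.13, -1.08 and -1.12. Csrp1, a LIM protein of smooth muscle, went from 255 ± 8.78 to 169 ± 1.69 CPM (-0.59, and -0.67 with Dexa). Fhl2, a LIM-only cofactor, changed by -0.39, and Myl6, the essential myosin light chain, by -0.39 with Dexa. The focal adhesion and cross-linking genes Zyx and Actn4, chosen after their values were seen, moved the other way, by 0.26 and 0.16 in DMSO without Dexa (adjusted p = 6.3e-07 and 1.0e-04). With Dexa the same list split, with 5 of 26 higher and 7 lower in siCTRL DMSO, where 12.7% and 14.1% of all genes were. Itga5, the fibronectin receptor subunit, rose by 0.49, while Filip1l and Lima1 fell, at -0.40 and -0.23. KL001 called 3, 4, 2 and 0 of the 26 in the 4 settings, raising 1, 2, 0 and 0 and lowering 2, 2, 2 and 0. Of all genes 3.22%, 4.98%, 1.77% and 2.5% were higher and 3.51%, 5.58%, 2.32% and 2.97% lower. The 4, with siCTRL and Dexa, became 1 or 2 without any 1 of the 6 libraries and 2 in the fit on the libraries compared. The 2, with siCop1, became 0 or 1 without any 1 of the 6 libraries, 1 with no filter and 5 in the fit on the libraries compared. With siCTRL it lowered Actg2 and Fhl1, at -0.16 and -0.12 without Dexa, and raised Zyx by 0.12, and these 3 calls were lost in the fit on the libraries compared, where the list's count was 0. Leaving out siCTRL DMSO replicate 2 or 3 left 1 of the 3. With siCop1 and Dexa KL001 called 0 of the 26 by edgeR, 2 at an unadjusted p below 0.05, 0 by DESeq2 and 2 with no filter.

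Of the late smooth-muscle genes 11 were tested, and siCop1 lowered 9, 9, 6 and 6 in the 4 settings and raised 0, with a median of -0.39 in DMSO without Dexa, against the shares of all genes given for the cytoskeletal list. Kcnmb1, a smooth-muscle potassium channel subunit, stood at 7.55 ± 0.304 CPM against 2.79 ± 0.563 CPM there (-1.44), and Actg2 is on this list too. Des, the muscle intermediate filament desmin, had values of -3.30 and -2.51 in DMSO without and with Dexa at a level of 3.21 CPM or less. The second lost its call without siCTRL replicate 2 (-1.37, adjusted p = 0.29), one of the libraries with high heart markers, and without any 1 of the 3 siCop1 libraries (0.087 to 0.095). For the first, all 3 siCTRL libraries had high heart markers (39.3 to 109 CPM summed), so leaving out 1 gives no value without them. The part of heart-muscle RNA in these values was not tested. Dexa raised 3, 4, 3 and 3 of the 11, against 12.7%, 12.7%, 12% and 12.1% of all genes. It lowered 0, where 14.1%, 14%, 11.6% and 12.4% of all genes were called lower. Lmod1, a nucleator of smooth-muscle actin filaments, rose from 46.2 ± 1.76 CPM to 70.0 ± 0.775 CPM in siCTRL DMSO (0.60, adjusted p = 6.0e-12), and its change with siCop1 was -0.39. Smtn, which encodes smoothelin, rose with Dexa by 0.43 and Mylk, the myosin light chain kinase, by 0.27. Mylk changed with KL001 by -0.33 and -0.36 with siCTRL, without and with Dexa. In each of these settings KL001 lowered 2 of the 11 (3.51% and 5.58% of all genes) and raised 0 (3.22% and 4.98%). The other gene was Actg2, whose calls were lost without single libraries and in the fit on the libraries compared. With Dexa the Actg2 call was also lost with the replicate block (-0.14, adjusted p = 0.053), which left 1 of the 2.

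**Figure D5:**
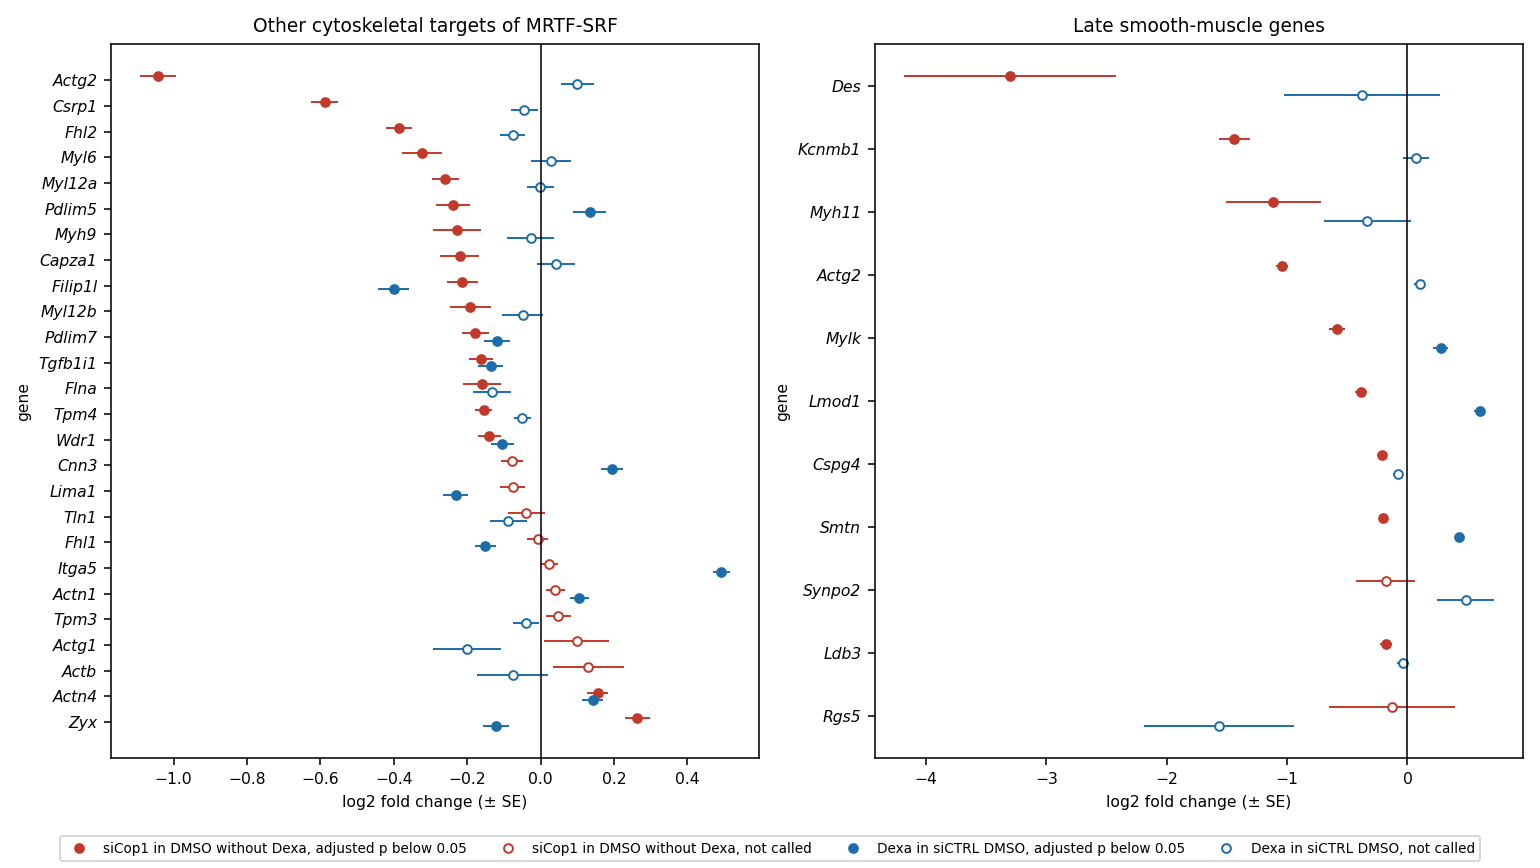
The log2 fold change (± SE) of the other cytoskeletal targets (left) and the late smooth-muscle genes (right) with siCop1 in DMSO without Dexa (red) and with Dexa in siCTRL DMSO (blue), filled where the adjusted p was below 0.05. With siCop1 Des lies at -3.30 (SE 0.88), left of Kcnmb1, Actg2 and Csrp1, and its siCTRL libraries were all high in heart markers. Kcnmb1, Actg2 and Csrp1 also lie far to the left with siCop1, and Lmod1, Smtn and Mylk lie right of 0 with Dexa.

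The count table carries MRTF-A and MRTF-B under the older symbols Mkl1 and Mkl2, and Mkl1 averaged 144 to 167 CPM over the groups. With siCop1 the Mkl1 change was 0.12 in DMSO without Dexa (adjusted p = 0.007), and Mkl2 changed by 0.17, 0.22 and 0.28 in the other settings. Both genes were chosen after their values were seen. These values are higher, and those of each gene in its remaining settings are not given here. Of the 16 tested genes of this list, siCop1 raised 3 and lowered 2 in DMSO without Dexa, against 12.8% and 16.6% of all genes, shares near those of the list. Arhgef2, a microtubule-bound RhoA activator, changed by -0.26, the formin gene Diaph2 by 0.25 and the small GTPase gene Rhob by -0.25. Dexa raised 4 and lowered 4 of the 16 in siCTRL DMSO (12.7% and 14.1% of all genes), and called 5 without replicate 2 of either group. Rhob rose from 156 ± 3.31 CPM to 233 ± 2.78 CPM (0.58), Rock2, a kinase acting on myosin light chain, rose by 0.43, and Arhgef2 fell, at -0.26. In the other settings siCop1 raised 3, 3 and 2 (14.4%, 14.5% and 13.7% of all genes) and lowered 3, 6 and 6 (16.7%, 18.2% and 16.3%). Dexa raised 4, 2 and 4 (12.7%, 12% and 12.1%) and lowered 3 in each (14%, 11.6% and 12.4%). The 6 siCop1 calls in DMSO with Dexa became 3 without siCop1 replicate 1 there, and the 9 in KL001 became 5 without siCop1 replicate 2. The 8 in KL001 with Dexa became 5 without siCTRL replicate 3 or siCop1 replicate 1, and the 5 Dexa calls in siCop1 DMSO became 3 without replicate 1 of siCop1 DMSO or replicate 2 of siCop1 DMSO with Dexa. KL001 raised Diaph3 and Arhgef2 with siCTRL and Dexa, by 0.17 and 0.091, calls that were lost in the fit on the libraries compared (adjusted p = 0.061 and 0.087).

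The immediate early genes are the other known arm of serum response factor. The list taken for this arm also holds Elk1, Elk3 and Elk4, which encode ternary complex factors, so its counts and medians mix factors with targets. Of 11 tested, 6 were lower and 1 higher with Dexa in siCTRL DMSO, 6 and 1 in siCTRL KL001, and 7 and 0 in both siCop1 settings, where 14.1%, 14%, 11.6% and 12.4% of all genes were lower. Called higher there were 12.7%, 12.7%, 12% and 12.1% of all genes. Egr1, a zinc finger factor, went from 80.2 ± 4.05 CPM to 40.5 ± 2.51 CPM in siCTRL DMSO (-0.98, adjusted p = 1.7e-15). Ier2 changed by -0.27 and the survival gene Mcl1 by 0.17. With siCop1 in DMSO without Dexa 3 of the 11 were higher and 2 lower (12.8% and 16.6% of all genes), among them Elk3 at 0.32, a ternary complex factor, and Junb at -0.31. By DESeq2, or without siCop1 replicate 1 of DMSO, that count of 5 was 3. With Dexa 2 were higher and 2 lower (14.4% and 16.7% of all genes). The counts were 4 and 3 in KL001 (14.5% and 18.2%), and 3 and 5 in KL001 with Dexa (13.7% and 16.3%). The median log2 change of the list was 0.072, -0.013, 0.060 and -0.36 in these settings, so its sign differed between them. The 7 calls in KL001 became 4 without siCTRL replicate 2 or in the fit on the libraries compared. KL001 called 0 of the 11 in all 4 settings by edgeR and by DESeq2, with 2, 2, 1 and 4 at an unadjusted p below 0.05. With siCop1 and Dexa it called 1 with the replicate block, 1 with no filter and 2 in the fit on the libraries compared, and with siCTRL 1 without siCTRL DMSO replicate 1.

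Of 14 genes of the TGF-beta pathway, whose signalling is the textbook inducer of Acta2 in fibroblasts, Dexa lowered 8 and raised 2 in siCTRL DMSO (14.1% and 12.7% of all genes). Smad3, the signal transducer, changed by -0.78 and the ligand Tgfb3 by -0.57. With siCop1 in DMSO without Dexa 3 were lower and 1 higher, against 16.6% and 12.8% of all genes, with Tgfb2 at -0.27, Ltbp2 at -0.25 and Tgfb1 at 0.26. KL001 lowered 3 with siCTRL without Dexa (3.51% of all genes): Ltbp2 (-0.50), Tgfbi (-0.30) and Tgfb3 (-0.27). In the other settings Dexa lowered 8, 7 and 9 of the 14 (14%, 11.6% and 12.4% of all genes). It raised 3, 2 and 2 (12.7%, 12% and 12.1%). In its other settings siCop1 lowered 5, 4 and 5 (16.7%, 18.2% and 16.3%) and raised 2 in each (14.4%, 14.5% and 13.7%). Likewise KL001 lowered 4, 3 and 3 (5.58%, 2.32% and 2.97%) and raised 1, 0 and 1 (4.98%, 1.77% and 2.5%). Beside these, the change of Acta2 with Dexa in siCTRL DMSO was 0.032 and did not pass the test.

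Genes with a like pattern over the 8 group means were sought among 9357 genes of at least 10 CPM, by the root-mean-square difference of centred log2 CPM. Nearest to Acta2 were Noa1 (0.058), Tagln (0.061) and Ptprq (0.066), where Acta2 itself varied by 0.34 about its mean. Nearest to Tagln were Hmgn3 (0.049), Serpine2 (0.051) and Acta2 (0.061), with Cnn1 at rank 7 (0.083). Srf was nearest to Coq10b (0.040), Ovca2 (0.042) and Usp6nl (0.043), with Tpm1 at rank 23 (0.058) and Acta2 at rank 8434 (0.31). The 4 lowest groups of Srf were the 4 with Dexa, and the 4 lowest groups of Acta2 were the 4 with siCop1. The points are group means of the same libraries, so these distances carry no test.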

How the data were processed

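RNA of wild type mouse embryonic fibroblasts was sequenced as stranded, poly(A)-selected libraries with single reads, per the labels' protocols. The authors deposited a table of raw counts per gene for the 24 libraries, made with STAR 2.4.5a and featureCounts of Subread 1.4.6-p3 on GRCm38, per the submitters' processing notes; the gene annotation and the strand and multi-mapping options of the counting are not stated. A normalized table was deposited too and is not used here. Columns were matched to samples by name, and 0 columns were left over.

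From the deposited counts, genes passing edgeR's filterByExpr (minimum count 10, minimum total 15) were scaled by TMM and fitted with edgeR 4.0.16's robust quasi-likelihood model in R 4.3.3, with 1 mean per group over all 24 libraries. The 12 single-factor comparisons and 6 interactions were tested two-sided, with Benjamini-Hochberg adjustment over the 14772 genes, and a gene is called at an adjusted p below 0.05. Every adjusted p in the text is from this edgeR fit or a named alternative. CPM use TMM-scaled library sizes, and intervals are 95%. Libraries held 21409988 to 27875023 counts, and the common biological coefficient of variation was 3.71%. Between replicates, chi-square per degree of freedom was 1.60 to 9.27 over 24 pairs, so no pair was counted as 1 library. The procedure was tested on simulated data.

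The members and lists were chosen with earlier results of these data known. Genes named beyond the members were at most 3 per list and comparison in the DMSO or siCTRL settings, those with the largest change among genes called with a mean of at least 10 CPM (1 CPM for late smooth-muscle genes). Exceptions are said to be chosen after their values were seen, and 1 gene that the rule names is not reported here. Alternatives were DESeq2 1.42.0, its size factors in edgeR, no filter, a replicate block, a fit on the libraries compared alone, and leaving out each library. Same-numbered libraries deviated together (correlation over 0.1) in 11 of 36 pairs, and in all 3 pairs of 2 of the 12 comparisons, Dexa in siCTRL KL001 (0.182, 0.422 and 0.328) and KL001 in siCTRL with Dexa (0.105, 0.333 and 0.237), whose numbers are taken to pair. For these 2 the block changed 0 calls of the 10 genes. The block fits replicate effects shared by all 8 groups, so it cannot show what pairing within these 2 comparisons alone would give. The main fit has no pairing.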

Additional observations from a re-analysis of the deposited data

Results flagged for a closer look

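Among the genes named, 3 differences between settings passed the test of the interaction itself (edgeR, Benjamini-Hochberg over all genes), and none belongs to the 10 contractile genes. Each is a difference between a pair of log2 changes. Rhob, a small GTPase gene that answers quickly to stimuli, rose less with Dexa after Cop1 knockdown, by -0.318 in DMSO (adjusted p = 8.7e-04) and by -0.253 in KL001 (0.015). Its own rises with Dexa were 0.58 with siCTRL and 0.26 with siCop1 in DMSO. The DMSO call held in 17 of 17 alternatives and the KL001 call in 13 of 17. Egr1 fell further with Dexa after Cop1 knockdown in KL001, by -0.323 (adjusted p = 0.037), and this held in 7 of 17 alternatives.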

How the results depend on the processing

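The 10 genes gave 62 calls over the 12 comparisons. Over 682 runs of alternatives on these calls, 647 kept the call, 35 lost it and 0 reversed; among uncalled values 34 of 1658 runs gained a call. Every siCop1 call of Acta2, Tagln, Cnn1, Cnn2, Myl9, Tpm1 and Cald1 held in each alternative run. The member count for KL001 in siCTRL without Dexa went from 2 to 4 with no filter, 4 with DESeq2 and 0 in the fit on the libraries compared, and ran from 2 to 4 leaving out 1 library. For KL001 in siCTRL with Dexa it went from 2 to 4 with DESeq2 (2 to 4 leaving out 1 library), for KL001 in siCop1 with Dexa from 2 to 1 with the replicate block, and to 3 with DESeq2 and in the fit on the libraries compared (1 to 2 leaving out 1 library), and for Dexa in siCTRL KL001 from 5 to 3 in the fit on the libraries compared (3 to 5 leaving out 1 library). Dexa in siCop1 KL001 had 5 calls, and 3 to 4 leaving out 1 library. KL001 by Dexa in siCop1 went from 0 to 1 in the fit on the libraries compared.

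The replicate block changed 1 call of the 10 genes, Tagln for KL001 in siCop1 with Dexa (-0.12, adjusted p = 0.054). The correlations of same-numbered libraries ran from -0.377 to 0.422. Over all genes, the count for KL001 in siCTRL without Dexa went from 994 to 225 in the fit on the libraries compared, and that for KL001 in siCop1 from 604 to 950 without and from 807 to 1435 with Dexa. Leaving out 1 library brought KL001 in siCTRL to 653 without Dexa (siCTRL DMSO replicate 3) and from 1560 to 928 or 962 with it (replicate 1 of siCTRL DMSO with Dexa, replicate 3 of siCTRL KL001 with Dexa). It brought KL001 in siCop1 with Dexa to 509 or 502 (replicate 1 of siCop1 DMSO with Dexa, replicate 3 of siCop1 KL001 with Dexa). With no filter the siCop1 by Dexa interactions went from 99 to 230 in DMSO and from 83 to 156 in KL001. Of the lists, the cytoskeletal targets went from 14 to 9 calls for Dexa in siCTRL KL001 in the fit on the libraries compared, and the cofactors from 9 to 4 for siCop1 in KL001 without Dexa and from 5 to 10 for Dexa in siCop1 DMSO. The cause of these changes was not tested.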
